A study of Mus musculus with 18 samples.

Results

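The heavy to medium ratio of an mRNA is its share of the RNA in heavy polysomes divided by its share in medium polysomes of the same lysate, on a log2 scale. Its shift under homoharringtonine (HHT) was taken as the ratio in the 4 HHT lysates minus that in the 2 vehicle lysates, with both genotypes given equal weight. The ratio needs 12 of the 18 libraries of the study, the medium and the heavy library of each of 6 lysates, and it was measured for 13973 genes. The study asks how FMRP, the Fmr1 product whose loss causes fragile X syndrome, affects the movement of ribosomes along mRNAs of the brain. Slices of hippocampus and cortex came from male C57BL/6N mice at postnatal day 28 to 35, either wild type (WT) or Fmr1 KO. They were held for 30 min at 30 °C in DMSO vehicle or in 20 µM HHT. Each genotype had 2 HHT lysates, called replicates 1 and 2, and 1 vehicle lysate without a replicate number. A lysate pooled 10 slices from 2 to 3 mice, so no value belongs to a single animal, and slices hold neurons, glia and vessels together. The medium and heavy pools of a 15 to 45% sucrose gradient were picked by where FMRP appeared on immunoblots, and each library started from 200 ng of RNA. Shares were divided by a scaling factor (TMM) for each library, which was 0.87 to 0.91 in the heavy libraries. In the medium libraries it was 1.10 in WT vehicle, 1.09 in KO vehicle and 1.00 to 1.05 in HHT. A ratio of 0 therefore means an equal scaled share in both pools and not equal amounts of mRNA or ribosomes. Where 0 lies is set by the scaling.

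Ribosomes that translate one mRNA together form a polysome, and the more ribosomes an mRNA carries, the deeper it sediments in sucrose. HHT binds the large ribosomal subunit and holds ribosomes at the start of the coding sequence, while ribosomes already elongating travel on and leave at the stop codon. mRNAs still deep in the gradient after the block are those whose ribosomes have not left, or that sediment with something other than a string of moving ribosomes. FMRP is known to associate with polysomes in brain and has been linked to slowed or stalled ribosomes.

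Library totals ran from 6226237 to 13834652 estimated counts over the 18 libraries. Markers of excitatory neurons, inhibitory neurons, astrocytes, oligodendrocytes, microglia and vessels were all measured, and none of those listed stood at 0 in any input library. Only 3 of 8 blood markers were measured, with a summed level of 4.04 to 30.9 CPM, the count scaled to a common library size, in any library. HHT replicate 2 stood apart from replicate 1 in both genotypes, with a wider spread of ratios.

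HHT narrowed the range of the ratio. The interquartile range over genes was 1.32 in the WT vehicle lysate and 1.16 in the KO vehicle lysate. In HHT it was 0.530 and 0.786 in WT replicates 1 and 2, and 0.530 and 0.763 in KO replicates 1 and 2. All 4 HHT lysates were thus narrower than both vehicle lysates, and replicate 2 was the wider of the HHT pair in each genotype. The HHT mean of 0.652 ± 0.141 (SD, n = 4) compared with a vehicle mean of 1.24, with exact permutation p = 0.0667, 2-sided, which is the smallest value that 4 against 2 lysates can give. The median over genes was -0.08 in WT vehicle, -0.07 in KO vehicle and between -0.01 and 0.00 in the HHT lysates. TMM scaling brings the bulk of genes in each library to a common level, so this median is largely set by the scaling and is no result about HHT.

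**Figure D1:**
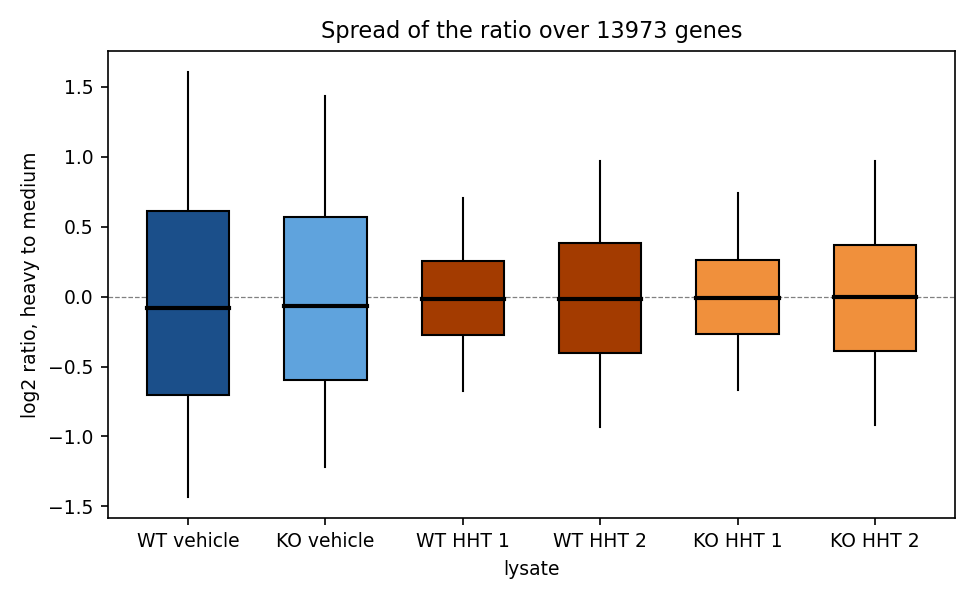
Log2 heavy to medium ratio of 13973 genes in each of the 6 lysates, with the box from the lower to the upper quartile, the line at the median and whiskers to the 5th and 95th percentiles. Blue boxes are vehicle and orange or brown boxes are HHT, and each HHT box is narrower than both vehicle boxes.

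In a fit of all 18 libraries with a term for each lysate (edgeR quasi-likelihood F-test, Benjamini-Hochberg adjustment over 13973 genes, 2-sided, 0.05), the ratio rose for 3031 genes, 21.7% of those tested. It fell for 2816 genes, 20.2% of those tested. The median shift over all genes was 0.12, with quartiles of -0.48 and 0.59, and the median standard error (SE) was 0.24. Of the calls, 51.8% were rises with TMM scaling, against 63.3% with scaling by total counts, under which 4001 genes rose and 2321 fell and the median over all genes moved to 0.28. The share of rises was 44.7% with RLE size factors and 43.6% with DESeq2, so that falls outnumbered rises in both. List medians below are therefore to be read against the all-gene median of 0.12. The 4 HHT ratios lay above both vehicle ratios for 4817 genes (34.5%) and below both for 4006 genes (28.7%). Because each genotype had a single vehicle lysate, its spread was assumed to equal that of the HHT lysates. The p-values describe spread between lysates of pooled slices.

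With WT lysates alone, 1768 genes rose (12.7%) and 2062 fell (14.8%). With KO lysates alone, 970 rose (6.94%) and 1587 fell (11.4%). No gene passed the test of the difference between the KO shift and the WT shift (edgeR, 0 genes, 114 at unadjusted p under 0.05), and DESeq2 also called 0. This contrast had a median SE of 0.48 per gene, so modest differences between genotypes were not detectable.

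The genes that rose were mostly those that had been lighter in vehicle, and those that fell had been heavier. Of the 3031 that rose, 93.3% had a vehicle ratio below 0, and the median distance of their ratio from 0 went from 0.816 in vehicle to 0.296 in HHT. Of the 2816 that fell, 1.10% had a vehicle ratio below 0, and the median distance went from 1.12 to 0.287. Vehicle values enter both the starting ratio and the shift, so this is a description and carries no test. Counts of genes on either side of 0 also depend on the scaling. Among the genes that fell, 1320 went from above 0 to below 0, and 48.0% had an HHT mean below 0. Among those that rose, 48.4% had an HHT mean below 0, and 204 began above 0 and went higher.

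A ratio can rise because the heavy share rose or because the medium share fell, and both kinds occurred. HHT against vehicle within each pool was tested in the same libraries as 12 group means, where 25.4% of genes were higher and 21.5% lower in medium, and 27.1% higher and 24.7% lower in heavy. Of the 3031 genes whose ratio rose, 1276 (42.1%) were lower in medium with no call in heavy, and their median coding length was 230 codons. A further 783 (25.8%) were higher in heavy with no call in medium. Another 529 (17.5%) were higher in both pools, and 95.2% of those matched to a coding sequence encode a protein with a predicted hydrophobic segment. That share was 36.1% among all matched genes. It was also high, at 83.5%, among the 91 genes whose ratio fell while they were higher in both pools. Of the 2816 genes whose ratio fell, 1487 (52.8%) were lower in heavy with no call in medium, and 611 (21.7%) were lower in heavy and higher in medium. The 416 (14.8%) that were higher in medium with no call in heavy had long coding sequences, with a median of 1216 codons. The ratio and the changes within pools share their libraries, so these counts sort the calls and add no separate support.

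Coding length separated the rises from the falls. Lengths came from GENCODE M21 on GRCm38, the assembly called mm10, for 13503 of the 13973 genes. Genes whose ratio rose had a median of 320 codons and 46.8% of them were under 300 codons. Genes whose ratio fell had a median of 656 codons and 3.25% were under 300, against a median of 474 codons and 25.4% for all matched genes. Under 150 codons, 357 of 838 genes rose and 1 fell, with a median shift of 0.64. The 1 that fell was Aldoa, placed here by the 138 codons of its matched transcript. From 150 to under 300 codons, 1021 of 2586 rose and 90 fell, with a median of 0.55. Rises and falls were about equally common from 300 to under 600 codons, where 1002 of 5208 rose and 1130 fell and the median was 0.05. Falls prevailed from 600 to under 1200 codons, with 429 of 3578 higher and 1220 lower and a median of -0.28. They also did so from 1200 to under 2400 codons, with 94 of 1076 higher and 340 lower and a median of -0.31.

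At the long end the direction turned again. Among 217 genes of 2400 codons or more, 44 rose and 17 fell, with a median of 0.10. Splitting that class, a step added after seeing the data, left 17 higher and 17 lower of 170 genes from 2400 to under 4000 codons, with a median of 0.03. At 4000 codons or more, 27 of 47 rose and 0 fell, with a median of 0.72. The median ratio of these longest genes was 0.60 in WT vehicle and 0.71 in KO vehicle, below that of genes of 2400 to under 4000 codons at 1.03 and 1.17. In HHT it was 1.11 and 1.36 in WT and 1.17 and 1.54 in KO, the highest of any length class in each of the 4 HHT lysates.

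**Figure D2:**
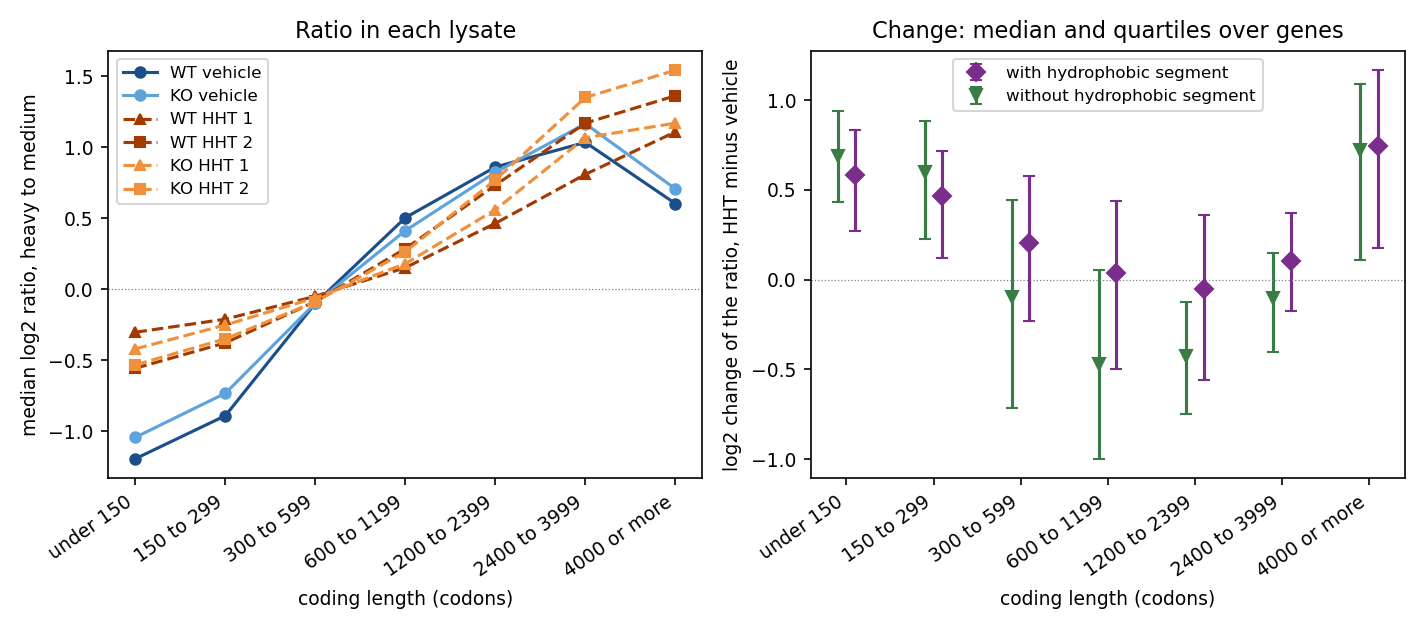
Left, median log2 heavy to medium ratio by coding length in codons, one line per lysate, with vehicle in blue circles and HHT in orange or brown triangles (replicate 1) and squares (replicate 2). Right, median shift with quartiles over genes, for proteins with and without a predicted hydrophobic segment, where genes under 300 codons and of 4000 codons or more lie above 0 and genes of 600 to under 2400 codons without such a segment lie below it.

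Within the length classes from 300 to under 4000 codons, proteins with a hydrophobic segment stood higher than those without. A segment was called where 19 residues in a row had a mean Kyte-Doolittle hydropathy of at least 1.6, which marks most membrane-spanning helices and many signal peptides. It was also called in 6 of 16 glycolytic enzymes, among them Pkm and Ldha, and in 2 of 38 proteasome subunits. The class with a segment is therefore not limited to membrane and secreted proteins. From 600 to under 1200 codons the median shift was 0.04 with a segment and -0.47 without, with 278 of 1406 genes lower in the former and 942 of 2172 in the latter. From 1200 to under 2400 codons the medians were -0.05 and -0.42. From 300 to under 600 codons they were 0.20 and -0.09. Below 300 codons the order was the other way, with 0.58 against 0.69 under 150 codons and 0.47 against 0.60 from 150 to under 300. From 2400 to under 4000 codons the medians were 0.11 with a segment and -0.10 without. At 4000 codons or more they were close, at 0.74 and 0.72, with 21 of 36 and 6 of 11 genes higher. The medians of -0.09 and -0.05 turned positive with scaling by total counts, and that of 0.04 turned negative with RLE size factors, while the order of the groups from 300 to under 2400 codons did not change with either.

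The coding stretches below illustrate 1 mRNA of the largest rises with a predicted segment and 2 of the largest falls without one. Each has at least 300 codons and was among the lowest adjusted p of its group. The choice by segment fixed their contrast in hydropathy beforehand, and falls with a segment, such as Irgm1 and Klhl7, could not be picked. Each is the most hydrophobic 19 codons of the reading frame, written in the coding direction from the GENCODE M21 transcripts on GRCm38. Capitals mark codons whose middle base is T, which all encode hydrophobic residues.
Fat3: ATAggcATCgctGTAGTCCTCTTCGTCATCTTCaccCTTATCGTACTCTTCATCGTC
Ddx5: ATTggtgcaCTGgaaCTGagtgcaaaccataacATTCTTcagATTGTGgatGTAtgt
Hnrnph2: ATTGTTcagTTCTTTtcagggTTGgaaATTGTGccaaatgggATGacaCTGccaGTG
Fat3 (chr9:15910189-16501285, minus strand) holds 16 such codons of 19, in codons 4151 to 4169 of 4551. Ddx5 (chr11:106780355-106789185, minus strand) holds 8 in codons 302 to 320 of 615, and Hnrnph2 (chrX:134601179-134607060, plus strand) holds 10 in codons 127 to 145 of 449. The mean hydropathy was 3.37 in Fat3, above the limit of 1.6, and 0.921 and 1.09 in Ddx5 and Hnrnph2, below it.

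The largest falls were in mRNAs of moderate coding length, and all but Irgm1 and Klhl7 of the 14 described lack a predicted hydrophobic segment. Such a segment was predicted in 20.8% of all matched genes whose ratio fell and in 36.1% of all matched genes. The shifts of the 14 ranged from -2.77 to -2.30 and their coding lengths from 409 to 691 codons. Nap1l3, a nucleosome assembly protein-like gene of neurons, had ratios of 1.94 in WT vehicle and 1.58 in KO vehicle. In HHT its ratios were -0.87 and -1.09 in WT and -0.65 and -1.36 in KO, all below both vehicle values. Its ratio fell by 2.77 ± 0.21 (SE, edgeR adjusted p = 2.07e-06), with the share rising by 1.34 in medium and falling by 1.42 in heavy. Its relative Nap1l2 fell by 2.42 ± 0.20.

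Hnrnph2, a splicing regulator, had ratios of 1.59 in WT vehicle and 1.60 in KO vehicle. In HHT they were -0.74 and -1.05 in WT and -0.66 and -1.10 in KO. The groups did not overlap, and the ratio fell by 2.49 ± 0.17 (edgeR adjusted p = 1.72e-06). Ddx5, a DEAD-box RNA helicase, had HHT ratios of -0.28 in both WT replicates and -0.20 and -0.27 in KO, against 2.10 and 2.02 in WT and KO vehicle. Its fall was 2.32 ± 0.15 (edgeR adjusted p = 1.72e-06), of which -1.66 was in heavy and 0.66 in medium.

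Cbs, the cystathionine beta-synthase of the transsulfuration pathway, had ratios of 1.94 and 1.77 in WT and KO vehicle and -0.71, -1.15, -0.73 and -0.91 in the HHT lysates, and fell by 2.76 ± 0.21 (edgeR adjusted p = 2.07e-06). Gspt2, a release factor of translation termination, fell by 2.43 ± 0.19 and Klhl7, an adaptor of a ubiquitin ligase, by 2.39 ± 0.18. Paf1, a subunit of a transcription elongation complex, fell by 2.33 ± 0.19, and Atp6v1h, a subunit of the vacuolar proton pump, fell by 2.30 ± 0.16. The other members of the 14 were Tuba1c (-2.72), Irgm1 (-2.50), Tnfaip2 (-2.46), Apbb1ip (-2.40) and Ifit1 (-2.34, with -2.87 in WT alone and -1.80 in KO alone). All 14 were lower in heavy, at -2.51 in Tuba1c, and 10 of the 14 were also higher in medium. Reads of Tuba1c can be shared with its near-identical alpha tubulin paralogs, so its value is uncertain.

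**Figure D3:**
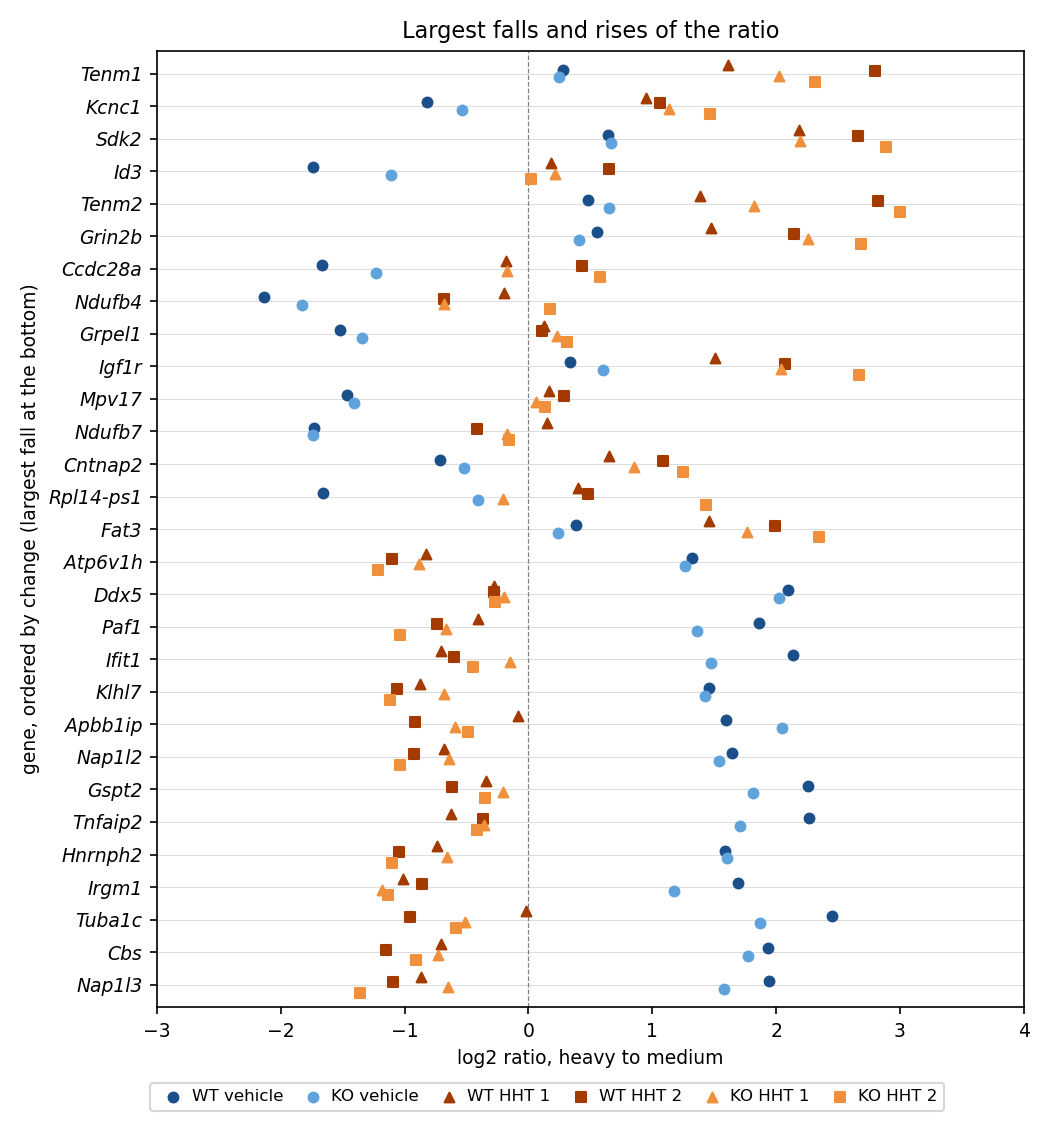
Log2 heavy to medium ratio of 14 genes with the largest falls (bottom) and the 15 with the largest rises (top) in each lysate. Blue circles are vehicle, triangles are HHT replicate 1 and squares HHT replicate 2. Genes were plotted only where the 4 HHT points lie on one side of both vehicle points, and the distance between the groups is what varies.

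The largest rises held both short and long coding sequences. Members that encode surface proteins had a higher share in heavy, and they were Kcnc1, Sdk2, Fat3, Igf1r, Cntnap2, Tenm1, Tenm2 and Grin2b, a grouping made after the values were seen. Kcnc1, the voltage-gated potassium channel Kv3.1 of fast-spiking neurons, had ratios of -0.82 in WT vehicle and -0.54 in KO vehicle. In HHT they were 0.95 and 1.06 in WT and 1.14 and 1.47 in KO. All 4 lay above both vehicle ratios and on the other side of 0, and the rise was 1.84 ± 0.17 (edgeR adjusted p = 4.97e-06), with 2.19 in heavy and 0.37, not passing the test, in medium.

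Sdk2, a synaptic adhesion molecule, had ratios of 0.64 and 0.67 in WT and KO vehicle and 2.18, 2.66, 2.20 and 2.89 in the HHT lysates, a rise of 1.84 ± 0.30 (edgeR adjusted p = 0.000344). Fat3, a giant cadherin, went from 0.38 and 0.24 in WT and KO vehicle to 1.46, 1.99, 1.76 and 2.35 in HHT, a rise of 1.58 ± 0.25 (edgeR adjusted p = 0.000283). In both genes the replicate 2 lysates were above the replicate 1 lysate of the same genotype. Igf1r, the receptor of insulin-like growth factor 1, rose by 1.62 ± 0.26, and Cntnap2, a contactin-associated adhesion protein of axons, by 1.60 ± 0.28.

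Spread was wider for the remaining surface genes. The teneurins Tenm1 and Tenm2, which bridge synapses, rose by 1.94 ± 0.53 (edgeR adjusted p = 0.0108) and 1.70 ± 0.43 (edgeR adjusted p = 0.00646). Grin2b, the GluN2B subunit of NMDA receptors, rose by 1.69 ± 0.46 (edgeR adjusted p = 0.0104), from 0.55 and 0.41 in WT and KO vehicle to 1.48, 2.14, 2.26 and 2.68 in HHT. None of the 3 passed without the lysate terms, at 1.87, 1.57 and 1.62, nor with WT lysates alone, at 1.92, 1.63 and 1.27. With KO lysates alone Grin2b passed (2.10) and Tenm1 (1.95) and Tenm2 (1.78) did not.

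The other members of the largest rises with a matched coding sequence have fewer than 300 codons, and their share in medium was lower. Ndufb7, a complex I subunit, had ratios of -1.73 in WT vehicle and -1.74 in KO vehicle, and 0.15, -0.42, -0.17 and -0.16 in the HHT lysates, none overlapping. It rose by 1.60 ± 0.29 (edgeR adjusted p = 0.00079), with -1.36 in medium and 0.24, not passing, in heavy. Grpel1, a co-chaperone of mitochondrial protein import, had ratios of -1.52 and -1.35 in WT and KO vehicle and 0.12, 0.11, 0.23 and 0.31 in HHT, a rise of 1.63 ± 0.21 (edgeR adjusted p = 7.18e-05). Id3, a short inhibitor of bHLH transcription factors, had vehicle ratios of -1.74 and -1.11 and HHT ratios of 0.18, 0.65, 0.21 and 0.02, a rise of 1.72 ± 0.29 (edgeR adjusted p = 0.000438), with 2.20 in WT alone and 1.24 in KO alone. Mpv17, an inner mitochondrial membrane protein, rose by 1.61 ± 0.20, Ccdc28a by 1.68 ± 0.30 and Ndufb4, another complex I subunit, by 1.64 ± 0.35. Rpl14-ps1, a pseudogene that can share reads with Rpl14, is listed at 1.59 ± 0.39 and is uncertain, and it did not pass in KO lysates alone (1.02, against 2.16 in WT).

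The shift was then read over 32 gene lists, each by its counts beside the 21.7% of all genes that rose and 20.2% that fell. The median over all genes was 0.04 with RLE size factors, and 13 list medians near 0 took the other sign with RLE or total counts, namely those of ER, FMRP-bound, blood, cholesterol, excitatory neuron, giant cytosolic, inflammatory, lysosomal, microglia, neuropeptide, oligodendrocyte, synaptic vesicle and tubulin genes. The machinery of translation split by the size of the protein. Of 79 cytosolic ribosomal proteins, which are short, 50 rose and 1, Rpl3, fell, with a median of 0.75. Their median ratio was -1.12 and -0.92 in WT and KO vehicle and between -0.30 and -0.13 in the 4 HHT lysates. Rpl18 rose by 1.24 ± 0.21, Rps24 by 1.21 ± 0.23 and Rps3 by 1.14 ± 0.21 (edgeR adjusted p = 0.00054, 0.00116 and 0.000848), and Rps24 did not pass in KO lysates alone (0.98). In medium 68 of the 79 were lower and 0 higher, and in heavy 13 were lower and 1 higher. Ribosomal protein genes have many processed pseudogenes, so reads of single members may be split.

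Mitochondrial ribosomal proteins moved likewise, with 52 of 77 higher and 4 lower and a median of 0.91. Mrps25 rose by 1.25 ± 0.18, from -1.43 and -1.19 in WT and KO vehicle to -0.03, -0.09, 0.06 and -0.20 in HHT (edgeR adjusted p = 0.000152). The 4 that fell, Mrps31, Mrps22, Mrps5 and Mrps27, all had more than 300 codons. A cut of each list at 300 codons was added after seeing the data. Below it 47 of 62 mitochondrial ribosomal protein genes rose and 0 fell, while above it 5 of 15 rose and 4 fell. Short members did not mostly rise in every list. Below the cut, 2 of 18 splicing factors rose and 6 fell, and 4 of 17 inflammatory genes rose and 4 fell. Among neuropeptide precursors 4 of 20 rose and 1 fell. Of short microglia markers 0 of 9 rose, and of short endothelial and mural markers 0 of 6.

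Translation factors went mostly the other way, with 9 of 52 higher and 28 lower and a median of -0.56. Eef1a2, the elongation factor of mature neurons, had ratios of 1.51 in WT vehicle and 1.22 in KO vehicle and -0.31, -0.64, -0.43 and -0.68 in HHT, and fell by 1.88 ± 0.14 (edgeR adjusted p = 1.98e-06). Abce1, which recycles ribosomes after termination, fell by 1.84 ± 0.17, Gspt1, the paralog of Gspt2, by 1.65 ± 0.17, and Eif3c, a scaffold subunit of initiation factor 3, by 1.53 ± 0.13. Those that rose and had a matched coding length were short. Under 300 codons 8 of 15 rose and 1 fell, whereas at 300 codons or more 0 of 36 rose and 27 fell. Eif4e (0.90), the cap-binding protein, Eif5a (0.79) and Eif1ax (0.79) were among the risers. The 6 aminoacyl-tRNA synthetases in the list of stress response genes, which charge tRNAs, all fell, from -2.11 in Tars to -1.35 in Sars.

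Energy metabolism held lists of opposite direction. Of 76 nuclear-encoded respiratory chain genes 54 rose and 7 fell, with a median of 0.94. Their median ratio was -1.55 and -1.30 in WT and KO vehicle and between -0.46 and -0.24 in HHT. Ndufs7 rose by 1.54 ± 0.19, from -1.72 and -1.57 in WT and KO vehicle to -0.18, -0.05, -0.03 and -0.17 in HHT (edgeR adjusted p = 4.85e-05). The 7 that fell are the large core subunits Ndufs1, Atp5a1, Ndufv1, Sdha, Uqcrc2, Atp5b and Uqcrc1, each of 453 codons or more. Ndufs1, the largest soluble subunit of complex I, fell by 1.87 ± 0.14, from 1.91 and 1.67 in vehicle to -0.02, -0.10, -0.17 and 0.00 in HHT (edgeR adjusted p = 1.98e-06). Subunits of the same complex thus moved in opposite directions. Medium was lower for 66 of the 76 genes and heavy for 18.

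Glycolytic enzymes fell, 14 of 16, with a median of -1.43 and 2 higher. Pkm, the pyruvate kinase that makes the last step to pyruvate, had ratios of 1.82 in WT vehicle and 1.56 in KO vehicle and 0.00, -0.14, -0.14 and -0.11 in HHT, and fell by 1.79 ± 0.12 (edgeR adjusted p = 1.72e-06). Eno1, an enolase, fell by 1.88 ± 0.14, Pfkp, a phosphofructokinase, by 1.68 ± 0.13 and Ldha, a lactate dehydrogenase subunit, by 1.62 ± 0.13. All 16 were lower in heavy, while 4 were higher and 3 lower in medium. The 2 that rose, Tpi1 (0.72) and Pgam1 (0.41), have fewer than 300 codons, as does the transcript matched to Aldoa, which fell (-1.35).

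Most chaperone mRNAs fell. Of 35 genes listed as cytosolic chaperones, a list that also holds the mitochondrial Hspa9, 29 fell and 3 rose, with a median of -1.43. Their median ratio was 1.27 and 1.22 in WT and KO vehicle and between -0.23 and -0.15 in the HHT lysates. Hspa4, an Hsp110-type exchange factor, had ratios of 1.92 in WT vehicle and 1.80 in KO vehicle and -0.32, -0.34, -0.17 and -0.18 in HHT, and fell by 2.12 ± 0.14 (edgeR adjusted p = 1.72e-06). Hsph1 fell by 1.87 ± 0.13, Hsp90ab1, the constitutive Hsp90, by 1.71 ± 0.14 and Hspa9, the mitochondrial Hsp70, by 1.64 ± 0.14. The 8 subunits of the cytosolic chaperonin that were listed fell together, from -1.70 in Cct3 to -1.39 in Cct2. The 3 that rose were Cryab (1.05), Ahsa1 (0.62) and Dnajb1 (0.43). By length, 1 of 5 under 300 codons rose and 1 fell, and 2 of 29 at 300 codons or more rose and 27 fell.

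The proteasome divided between its core and its cap. Among 38 subunits 13 rose and 16 fell, with a median of -0.22. In the 20S core of Psma and Psmb subunits, 8 of 14 rose and 2 fell, with a median of 0.61 and coding lengths of 201 to 277 codons. In the ATPase ring of Psmc subunits 0 of 6 rose and 4 fell, and among Psmd subunits 3 of 14 rose and 9 fell, both with medians of -0.61. Psmd14, the deubiquitinase of the cap, fell by 2.05 ± 0.16 (edgeR adjusted p = 2.07e-06), from 1.01 and 0.98 in WT and KO vehicle to -1.03, -1.06, -0.91 and -1.22 in HHT. Psmd1, a scaffold of the cap, fell by 1.78 ± 0.14. These subgroups were formed after the values were seen.

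Genes of ER translocation and folding showed little net movement of the ratio although their shares changed in both pools. Among 52 genes 9 rose and 8 fell, and the median was 0.00 and turned to -0.08 with RLE size factors. In medium 32 were higher and 5 lower, and in heavy 38 were higher and 4 lower. Hspa5, the ER chaperone BiP, gained 2.44 in medium, 1.42 in heavy and 1.44 in input, where 12.2% of all genes were higher and 0.215% lower, and its ratio fell by 1.06 ± 0.16 (edgeR adjusted p = 0.000262), although it did not pass in KO lysates alone (-0.69, against -1.43 in WT). The signal recognition particle subunits Srp54a, Srp72 and Srp68, which are cytosolic proteins, fell by 1.77 ± 0.18, 1.21 ± 0.17 and 0.88 ± 0.15.

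mRNAs of RNA processing fell broadly. Of 63 splicing factors 43 fell and 2 rose, with a median of -0.99, and 42 of the 63 were lower in heavy. Their median ratio was 0.86 and 0.90 in WT and KO vehicle and between -0.27 and -0.18 in HHT. Hnrnpk fell by 2.21 ± 0.14, from 1.92 and 1.72 in WT and KO vehicle to -0.32, -0.35, -0.33 and -0.55 in HHT (edgeR adjusted p = 1.72e-06). Hnrnpu, a nuclear matrix-associated RNA-binding protein, fell by 2.04 ± 0.14.

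Chromatin modifiers, which the title of the study names, also leaned lower, with 8 of 79 higher, 30 lower and a median of -0.34. Their shift came more from medium than from heavy, since 39 were higher and 3 lower in medium against 22 higher and 18 lower in heavy. Smarca4, the ATPase of a chromatin remodelling complex, had ratios of 2.81 and 2.77 in WT and KO vehicle and 0.94, 1.43, 0.93 and 1.40 in HHT. It fell by 1.61 ± 0.20 (edgeR adjusted p = 4.94e-05), with 1.44 in medium and -0.18, not passing, in heavy. The histone demethylases Kdm4a and Kdm4b fell by 1.51 ± 0.16 and 1.31 ± 0.16 and the acetyltransferase Kat7 by 1.18 ± 0.14. The 3 giant methyltransferases Kmt2a (1.06), Kmt2c (0.86) and Kmt2d (0.72) rose, as did Hdac3 (1.26). Setd2, a histone methyltransferase active on transcribed genes, stood at -0.53 ± 0.21 (edgeR adjusted p = 0.0625), with ratios of 1.42 and 1.72 in WT and KO vehicle and 0.54, 0.92, 1.14 and 1.56 in HHT, so that the groups overlapped. It passed in 5 other fits, RLE size factors, DESeq2, medium and heavy libraries alone, a block for HHT replicate number and without KO HHT replicate 2, where the values ran from -0.64 to -0.53.

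Immediate early genes, which neurons induce within minutes of activity, had 8 of 41 higher and 22 lower and a median of -0.42. Myc, a growth-associated transcription factor, fell by 1.87 ± 0.19 (edgeR adjusted p = 1e-05), from 1.37 and 1.22 in WT and KO vehicle to -0.54, -0.84, -0.25 and -0.63 in HHT. Nr4a2, an orphan nuclear receptor, fell by 1.70 ± 0.15, Egr1, a zinc finger transcription factor, by 1.46 ± 0.13 and Plk2, a kinase of synaptic homeostasis, by 1.32 ± 0.13. Of the 8 genes under 300 codons 4 rose and 0 fell, led by Btg2 (1.13). Fos (-0.96) and Arc (-0.78) fell.

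Among genes controlled by upstream reading frames or induced by the integrated stress response, 7 of 33 rose and 14 fell, and the median of 0.18 had the opposite sign to that lean. The transcription factors Atf5 (1.35), Ddit3 (0.71) and Atf4 (0.70) and the phosphatase subunit Ppp1r15a (1.07), which carry upstream reading frames, rose. Enzymes of the list fell, with Asns, the asparagine synthetase, lower by 1.58 ± 0.14 and Aars by 1.92 ± 0.15. Of 13 polyamine and frameshift genes 4 rose and 0 fell, with a median of 0.35. Oaz1 and Oaz2, the antizymes whose second reading frame is reached by ribosomal frameshifting, rose by 0.91 ± 0.18 and 0.97 ± 0.14, and Srm, the spermidine synthase, by 1.29 ± 0.19.

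Of 21 measured noncoding RNAs and snoRNA host genes, which have no long reading frame, 3 rose and 0 fell, with a median of 0.30. Peg13 had ratios of -0.98 and -0.81 in WT and KO vehicle and 0.16, 0.17, 0.24 and 0.20 in HHT, and rose by 1.09 ± 0.13 (edgeR adjusted p = 4.17e-05). Meg3 rose by 0.74 ± 0.23 (edgeR adjusted p = 0.0178) and did not pass without the lysate terms (0.75), in WT alone (0.61) or in KO alone (0.88). Snhg1, a host of small nucleolar RNAs at a mean of 4 CPM, stood at 1.19 ± 0.40 (edgeR adjusted p = 0.0279) and did not pass without WT HHT replicate 2 (0.99) or without KO HHT replicate 1 (0.88), in WT alone (1.22), in KO alone (1.17) or with DESeq2 (1.11).

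The cytoskeleton fell where its proteins are globular and of moderate size. Of 12 alpha and beta tubulins in the list 10 fell and 0 rose, with a median of -1.61, and Actb and Actg1, the cytoplasmic actins, fell by 2.13 ± 0.18 and 1.40 ± 0.12. Actb had ratios of 1.90 and 1.67 in WT and KO vehicle and -0.04, -0.41, -0.27 and -0.70 in HHT (edgeR adjusted p = 2.79e-06). Tubb5 fell by 1.81 ± 0.15 and Tubb4a by 1.68 ± 0.14, although reads can be shared between these paralogs. Over all 25 tubulins, actins and their short regulators 4 rose and 12 fell, the risers being Pfn1 (1.02), Stmn1 (0.96), Cfl1 (0.90) and Pfn2 (0.52).

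**Figure D4:**
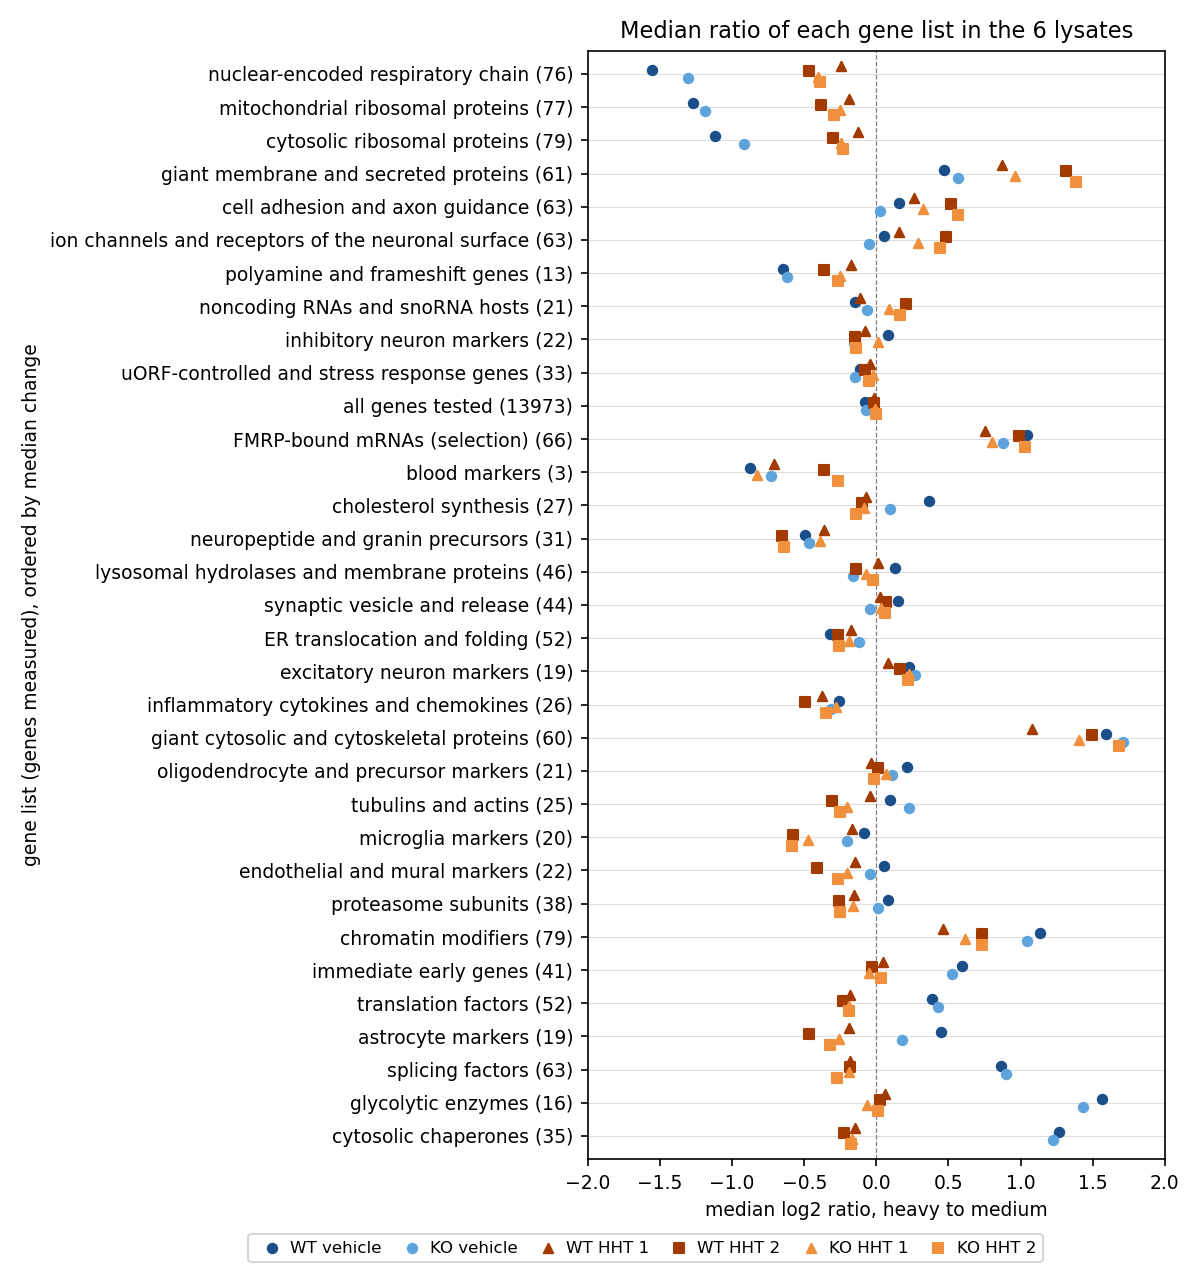
Median log2 heavy to medium ratio of each gene list in the 6 lysates, with the number of genes measured in brackets, ordered by the median shift. Vehicle medians (blue circles) reach from -1.55 for the respiratory chain to 1.71 for giant cytosolic proteins, while most HHT medians (orange and brown) lie nearer 0. Those of some lists lie farther from it, among them giant membrane and secreted proteins, channels and receptors, adhesion and guidance genes, and endothelial and mural markers.

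Giant membrane and secreted proteins moved away from 0. Of 61 measured 28 rose and 1 fell, with a median of 0.62. Their median ratio was 0.47 and 0.56 in WT and KO vehicle, 0.87 and 1.32 in WT HHT replicates 1 and 2 and 0.96 and 1.38 in KO HHT replicates 1 and 2. Lrp1, an endocytic receptor, had ratios of 0.45 and 0.68 in WT and KO vehicle and 1.74, 2.27, 1.64 and 2.47 in HHT, and rose by 1.47 ± 0.23 (edgeR adjusted p = 0.000285). Csmd2, a complement-like synaptic protein, rose by 1.24 ± 0.20 and Ryr2, the calcium release channel of the ER, by 1.17 ± 0.20. All 4 teneurins rose, as did 4 of 6 plexins, the receptors of semaphorins, and 3 of 4 pore subunits of calcium channels. In medium 47 of the 61 were higher and in heavy 56, with 0 lower in either, and the median change was 1.14 in medium, 1.88 in heavy and 0.80 in input.

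Ion channels and receptors had 22 of 63 higher and 4 lower, with a median of 0.36. Grik5, a kainate receptor subunit, had ratios of -0.53 and -0.56 in WT and KO vehicle and 0.47, 0.68, 0.35 and 0.51 in HHT, and rose by 1.05 ± 0.14 (edgeR adjusted p = 9.04e-05). Scn2b, a small sodium channel auxiliary subunit, rose by 0.93 ± 0.15. Cell adhesion and guidance genes had 15 of 63 higher and 1 lower, with a median of 0.42. Nlgn2, the neuroligin of inhibitory synapses, rose by 1.14 ± 0.16, from -0.47 and -0.55 in WT and KO vehicle to 0.58, 0.82, 0.45 and 0.66 in HHT (edgeR adjusted p = 0.000144). Unc5a, a netrin receptor, rose by 1.27 ± 0.20 and Lrrc4c, a netrin-G ligand, by 1.18 ± 0.21. In these lists heavy was higher for 62 of 63 and 63 of 63 genes and medium for 60 of 63 in each, so the ratio shift is a difference between 2 gains.

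Giant cytosolic and cytoskeletal proteins, of similar length, had 16 of 60 higher and 16 lower. Their median of -0.06 turned to 0.09 with total counts. Among all genes of 4000 codons or more, the median shifts with and without a hydrophobic segment were close, at 0.74 and 0.72. Ubr4, a giant ubiquitin ligase, had ratios of 1.86 and 1.95 in WT and KO vehicle and 2.91, 3.42, 2.90 and 3.67 in HHT, and rose by 1.32 ± 0.21 (edgeR adjusted p = 0.000299). The cytolinkers Dst and Macf1 rose by 1.31 ± 0.18 and 1.13 ± 0.17, the latter by 0.89 in WT alone and 1.38 in KO alone. Sptan1 and Map1a fell, both at -1.08. In the limma fit of the per-lysate ratios Ubr4 and Ryr2 kept their size (1.32 and 1.16) and did not pass.

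**Figure D5:**
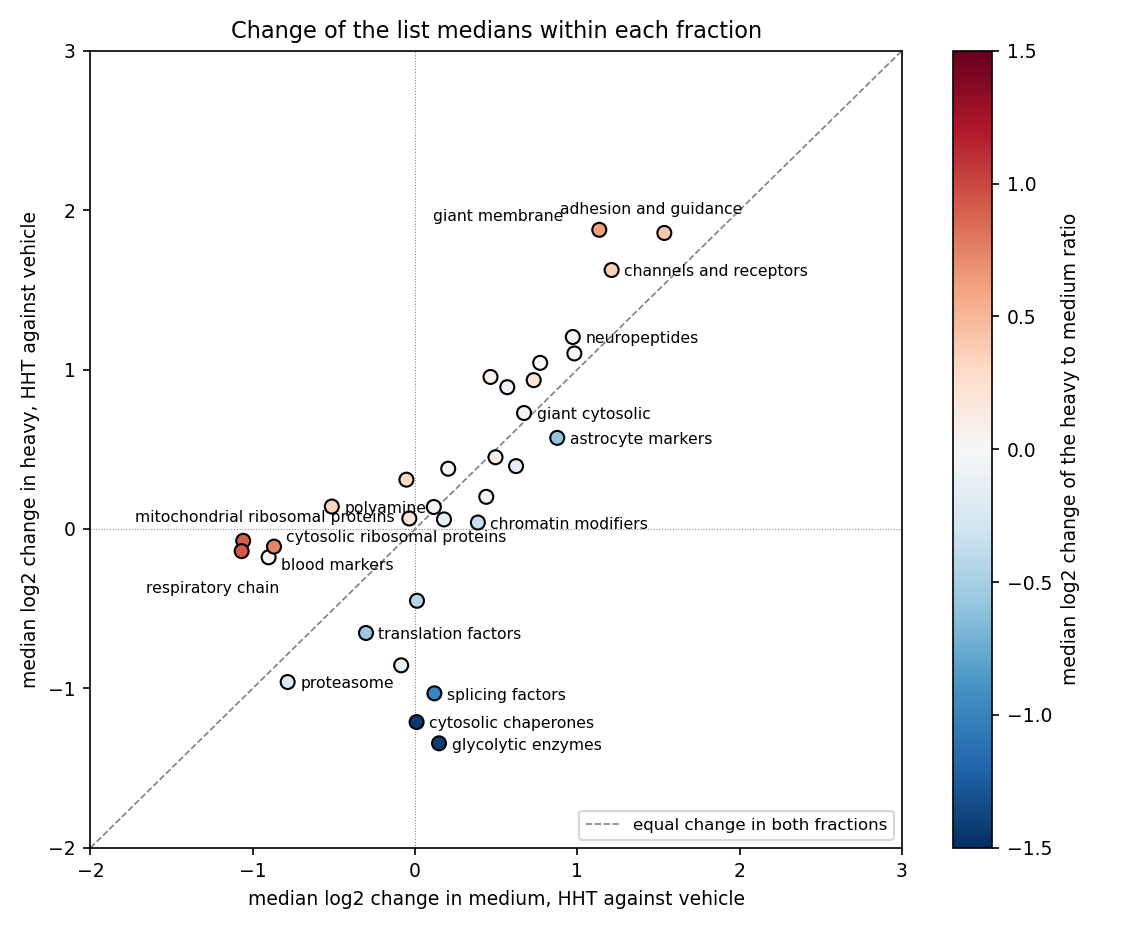
Median log2 change of each gene list under HHT in medium (horizontal) and in heavy (vertical), coloured by the median shift of the ratio, with the dashed line where both changes are equal. Ribosomal protein and respiratory chain lists lie to the left at -1.07 to -0.87 in medium, glycolytic enzymes and chaperones lie at the bottom at -1.34 and -1.21 in heavy, and surface proteins lie at the upper right with gains in both pools.

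Synaptic vesicle genes were mixed, with 13 of 44 higher and 15 lower, and the median of 0.01 turned to -0.07 with RLE size factors. Nsf, the ATPase that recycles SNARE complexes, fell by 1.91 ± 0.13, from 2.11 and 1.69 in WT and KO vehicle to -0.02, 0.02, -0.09 and 0.08 in HHT (edgeR adjusted p = 1.72e-06). Dnm1, the dynamin of vesicle endocytosis, fell by 1.41 ± 0.14, Syn1, a synapsin, by 1.38 ± 0.14 and Snap91, a clathrin adaptor, by 1.21 ± 0.15. Short members rose, 9 of 15 under 300 codons, among them Vamp2 (0.62), and the giant active zone protein Pclo rose by 1.19.

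Neuropeptide precursors had 4 of 31 higher and 5 lower, and lysosomal genes 5 of 46 higher and 2 lower, both shares below the background, while 25 of 31 and 39 of 46 were higher in heavy. The granins Chgb, Chga and Vgf fell by 0.83 ± 0.14, 0.79 ± 0.17 and 0.74 ± 0.15, with gains of 2.13 to 2.29 in medium and 1.32 to 1.56 in heavy. Without the lysate terms Chga and Vgf did not pass, at -0.77 and -0.72, nor did they in KO lysates alone, at -0.57 and -0.45, against -1.02 and -1.04 in WT. Igfbp5, a secreted binding protein of growth factors, rose by 0.94 ± 0.17, with 0.72 in WT alone and 1.16 in KO alone. The lysosomal enzymes Hexa and Neu1 rose by 0.99 ± 0.23 and 0.91 ± 0.18, and Lamp2, a lysosomal membrane protein, fell by 0.90 ± 0.23. In KO lysates alone neither Hexa (0.77, against 1.21 in WT) nor Lamp2 (-0.45, against -1.34) passed.

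Cholesterol synthesis had 6 of 27 higher and 9 lower. Hmgcs1, the synthase at the head of the pathway, fell by 1.47 ± 0.13, from 1.46 and 1.44 in WT and KO vehicle to -0.08, 0.02, 0.01 and -0.02 in HHT (edgeR adjusted p = 4.86e-06). Nsdhl, Fdps and Fdft1, enzymes further down, fell by 1.45 ± 0.22, 0.99 ± 0.19 and 0.92 ± 0.16. Inflammatory genes had 4 of 26 higher and 9 lower. Nfkbiz and Tnfaip3, regulators of NF-kappaB, both fell by 1.53 (SE 0.23 and 0.18), and the interleukins Il1b and Il1a by 1.44 ± 0.33 and 1.23 ± 0.18, of which Il1b did not pass in KO lysates alone (-1.39). The chemokines Ccl4 (1.25), Cxcl1 (1.25), Ccl3 (1.14) and Cxcl10 (0.92), all very short, rose. Of the 17 inflammatory genes under 300 codons, however, 4 rose and 4 fell, the latter including Il1b (269 codons) and Il1a (270 codons). At 300 codons or more 0 of 9 rose and 5 fell.

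The 66 measured FMRP-bound mRNAs, a selection from published brain crosslinking data, did not move one way, with 21 higher and 22 lower. Their median of 0.07 turned to -0.01 with RLE size factors. Their median ratio was 1.05 and 0.88 in WT and KO vehicle and 0.75, 0.99, 0.80 and 1.03 in the HHT lysates, so the groups overlapped. Camk2a, the alpha subunit of the calcium/calmodulin-dependent kinase, fell by 1.37 ± 0.14, from 2.07 and 1.68 in WT and KO vehicle to 0.45, 0.73, 0.28 and 0.55 in HHT (edgeR adjusted p = 1.12e-05). Clip3, a microtubule-associated protein, fell by 1.60 ± 0.13. Agap2, a GTPase-activating protein, rose by 1.08 ± 0.12, from -0.50 and -0.60 in WT and KO vehicle to 0.60, 0.55, 0.54 and 0.43 in HHT (edgeR adjusted p = 2.85e-05). Fmr1 itself stood at -0.12 ± 0.26 (edgeR adjusted p = 0.75), with ratios between -0.46 and -0.10 in all 6 lysates, and its paralogs Fxr1 and Fxr2 fell by 1.01 ± 0.20 and 0.49 ± 0.13, the latter not passing in KO lysates alone (-0.42).

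Markers of cell types were read in the same way. In bulk slices, fewer cells of a type and less RNA per cell cannot be told apart. Astrocyte markers had 3 of 19 higher and 10 lower, with a median of -0.59. Glul, the glutamine synthetase of astrocytes, fell by 2.29 ± 0.15, from 2.01 and 1.67 in WT and KO vehicle to -0.23, -0.55, -0.35 and -0.65 in HHT (edgeR adjusted p = 1.72e-06), and Aldoc, Sox9 and Acsbg1 by 2.21 ± 0.22, 2.20 ± 0.18 and 1.69 ± 0.15. The 3 that rose were the short Cst3 (1.06) and S100b (0.96) and the longer Ntsr2 (0.65). The summed level of these markers in input was 3568 to 4061 CPM in vehicle and 5380 to 5906 in HHT, and its part in the shift was not tested.

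Oligodendrocyte markers had 8 of 21 higher and 6 lower, and under 300 codons 7 of 9 rose. Mbp, the myelin basic protein, rose by 0.99 ± 0.12, from -0.89 and -0.76 in WT and KO vehicle to 0.14, 0.13, 0.12 and 0.26 in HHT (edgeR adjusted p = 4.23e-05), and Olig1 rose by 1.28 ± 0.13. Sox10 and Cnp fell by 1.99 ± 0.18 and 1.51 ± 0.15. Their summed input level was 4031 to 4332 CPM in vehicle and 4929 to 5659 in HHT.

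Microglia markers had 0 of 20 higher and 3 lower, Csf1r (-1.73 ± 0.21), Cx3cr1 (-1.11 ± 0.34) and Fcrls (-1.15 ± 0.43). Fcrls did not pass with total counts, without WT HHT replicate 2 (-0.99) or without KO HHT replicate 1 (-1.07). In single genotypes neither Fcrls (-1.59 in WT, -0.72 in KO) nor Cx3cr1 (-0.95 and -1.27) passed. None of 22 endothelial and mural markers passed (edgeR), and 0 of 3 blood markers did. The 22 stood low, with summed levels of 92.3 to 98.9 CPM in vehicle medium and 91.7 to 92.3 in vehicle heavy. Their median shift was -0.15, and 6 had all HHT ratios below both vehicle ratios against 0 above. The lack of calls therefore does not show that vessel markers kept their ratio. The summed input level of microglia markers was 169 to 216 CPM in vehicle and 308 to 390 in HHT. That of vessel markers was 91.7 to 106 and 206 to 224. Both sums thus stood higher in HHT input, and their part in the shift was not tested. A hydrophobic segment was predicted in 15 of 20 microglia markers and 18 of 22 vessel markers. Over genes of all lengths, the median input change was 0.39 with a segment and -0.06 without. The part of this wider change in the higher sums was not tested.

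Inhibitory neuron markers had 4 of 22 higher and 2 lower, the latter being Gad2 (-1.66 ± 0.14) and Gad1 (-1.33 ± 0.14), the enzymes of GABA synthesis. Cnr1, the cannabinoid receptor of some interneurons, and the peptide Npy rose by 1.15 ± 0.21 and 1.03 ± 0.26, of which Npy did not pass in KO lysates alone (0.82, against 1.23 in WT). The summed input level of inhibitory markers was 1565 to 1687 CPM in vehicle and 2154 to 2505 in HHT, with 8 of 22 higher, and its part in the shift was not tested. Excitatory neuron markers had 6 of 19 higher and 6 lower. Neurod2, a transcription factor of cortical neurons, rose by 1.05 ± 0.13, from -0.95 and -0.76 in WT and KO vehicle to 0.16, 0.17, 0.22 and 0.22 in HHT (edgeR adjusted p = 4.27e-05). Tbr1 and Prox1, transcription factors of cortex and dentate gyrus, fell by 1.06 ± 0.14 and 1.03 ± 0.19, of which Prox1 did not pass in KO lysates alone (-0.71, against -1.35 in WT). Markers of one cell type thus went in both directions in 4 of the lists.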

How the data were processed

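The deposited table held expected counts per gene that the authors made with RSEM, which divides reads shared by similar genes, so values of paralogs and pseudogenes are uncertain. Per the submitters' processing notes, build mm10 was used with RSEM 1.2.11, and Trimmomatic 0.32, DESeq2 1.16.1 and Bowtie2 2.1.0 are also named. The table name refers to 2 batches; how they were adjusted, if at all, the sources used here do not give. None of the 251514 values was whole (tolerance 1e-06), and they were rounded before testing.

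The heavy to medium shift was fitted with edgeR 4.0.16 in R 4.3.3 over all 18 libraries with TMM scaling and a term for each lysate (14 terms, 4 residual degrees of freedom, prior 9.35). Fractions were paired by lysate because the labels' extract protocol divides each lysate. Correlations of deviations between medium and heavy were 0.07 in WT and 0.01 in KO. The SE is the size of the log2 change divided by the root of F. Changes within a fraction used 12 group means. Ratios per lysate are log2 CPM differences with a prior count of 2. A filter on low counts (filterByExpr by group) was applied and left all 13973 genes. limma 3.58.1 and DESeq2 1.42.0 were alternatives, and the test was run on simulated data first.

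Named genes are up to 15 rises and 15 falls that passed with a mean of at least 5 CPM, no overlap of HHT with vehicle ratios and a named gene model, up to 4 genes per list by lowest adjusted p, and Fmr1, Fxr1, Fxr2 and Setd2. Other genes were chosen after their values were seen, as were subgroups and the split at 300 codons. The members and lists were chosen with earlier results of these data known. Nothing in the labels ties WT and KO lysates of one number to a shared preparation. Some genes that this rule names, and 1 sequence, are not reported here.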

Additional observations from a re-analysis of the deposited data

Results flagged for a closer look

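In 6 of 189 sets of 4 HHT lysates, the sample at one end stood farther from the other 3 than Dixon's 95% limit for 4 samples allows, which chance gives in about 1 of 20 sets. The ratio of Ddx5 was highest in KO HHT replicate 1, at -0.197, and that of Eno1 was lowest there, at -0.0835. In KO HHT replicate 2 the ratio of Hnrnpk was lowest, at -0.549, and that of Mbp highest, at 0.256. The median ratio of splicing factors was lowest in KO HHT replicate 2, at -0.273, and that of translation factors in WT HHT replicate 2, at -0.230. Each of these values still lay on the same side of both vehicle values as the other HHT lysates.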

How the results depend on the processing

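Counts of genes whose ratio rose and fell were 3031 and 2816. They moved by more than 1.5 times in WT lysates alone (1768 rose), in KO lysates alone (970 rose, 1587 fell) and for rises with DESeq2 (2008 rose), and the cause was not tested beyond the fewer lysates of the first 2. DESeq2 gave 2599 falls. With no replicate block for the lysate 2533 rose and 2571 fell. With a replicate block for the lysate and the HHT number 3955 rose and 3356 fell. RLE size factors gave 2500 and 3087, total counts 4001 and 2321, a minimum mean of 5 CPM 3214 and 2637, medium and heavy libraries alone 3544 and 3108, and limma 3260 and 3092. Leaving out 1 HHT lysate gave 2529 to 2804 and 2492 to 2635. No gene passed the KO against WT test in the fits that gave it. The narrower spread in HHT had the same direction as a standard deviation and above 5 CPM. No result changed sign among those called. One vehicle lysate per genotype and shares within a fraction limit every value.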
